A study of Mus musculus with 4 samples.

Results

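The genes of antigen presentation on MHC class II were followed in leukemia stem cells (LSCs) of the MLL-AF9 mouse model of acute myeloid leukemia (AML), in which CD37, a tetraspanin of the leukocyte surface, was deleted or not. The 8 genes were Cd74, H2-Aa, H2-Ab1, H2-Eb1, H2-DMa, H2-DMb1, H2-DMb2 and Ciita, taken by name from the 17104 genes with values, and all 8 were found. They were chosen on their values in these same libraries, of which the 2 CD37 fl/fl libraries had been seen to differ, so their levels are given as a description without a test. Lineage-negative bone marrow cells of CD37 fl/fl, Cre+ mice, in which a tamoxifen-activated Cre is made from the Rosa26 locus and loxP sites surround exons 4 and 5 of Cd37, were transduced with a retrovirus that carries MLL-AF9 and the fluorescent marker YFP. Recipient mice were sublethally irradiated and received tamoxifen, which gave CD37 -/- LSCs, or corn oil, which left CD37 fl/fl LSCs, so that both groups carried the floxed alleles, the Cre and the oncogene. YFP+, c-kit+ cells were sorted at week 6 of the secondary transplantation from the bone marrow of male mice, and their poly(A) RNA was sequenced in 2 libraries of each genotype, of which the CD37 fl/fl libraries are the controls. No label says whether the 2 replicates of a genotype came from separate mice, so p-values measure only the spread between these samples.

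MHC class II molecules show peptides from endosomes to CD4+ T cells. Each is a pair of an alpha and a beta chain that is assembled around the invariant chain CD74, which fills the peptide groove until lysosomal proteases cut it down to a short fragment, and H2-DM then exchanges that fragment for peptide. CIITA switches the genes on without binding DNA itself, through RFX at the X box and NF-Y at the Y box of their promoters. Dendritic cells, macrophages and B cells are the main carriers of class II in bone marrow, and myeloid leukemia cells can carry it as well.

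The promoter sequences of the chains and of H2-DM are shown because class II genes are known to be controlled jointly through X and Y boxes. The 150 bases before the RefSeq start are given 5′ to 3′ on the strand of the gene (GRCm38.p6), with the X box core ACNGATG and the Y box core ATTGG, or its longer form CTGATTGG, in capitals. They lie at chr17:34287824-34287973 (minus strand) for H2-Aa, chr17:34305717-34305866 (plus strand) for H2-Eb1, chr17:34153041-34153190 (plus strand) for H2-DMb1 and chr17:34145099-34145248 (plus strand) for H2-DMb2.
H2-Aa: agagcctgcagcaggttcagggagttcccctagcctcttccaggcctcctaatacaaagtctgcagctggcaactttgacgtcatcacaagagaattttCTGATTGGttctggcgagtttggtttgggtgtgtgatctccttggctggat
H2-Eb1: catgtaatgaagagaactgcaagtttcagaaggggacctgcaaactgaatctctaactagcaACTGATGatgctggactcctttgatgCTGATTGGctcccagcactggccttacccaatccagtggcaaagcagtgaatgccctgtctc
H2-DMb1: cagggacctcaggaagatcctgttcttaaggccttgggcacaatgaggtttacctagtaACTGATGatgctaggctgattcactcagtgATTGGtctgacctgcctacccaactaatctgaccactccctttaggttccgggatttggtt
H2-DMb2: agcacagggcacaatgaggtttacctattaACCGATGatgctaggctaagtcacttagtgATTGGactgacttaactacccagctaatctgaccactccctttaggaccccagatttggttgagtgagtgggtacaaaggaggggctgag
Both strands of 250 bases before to 50 bases after each start were searched, and ATTGG lies within CTGATTGG. An X box core followed on the same strand by ATTGG with 5 to 40 bases between them was found in H2-Eb1, H2-DMb1 and H2-DMb2. The same pair was found in 85 of all 32851 RefSeq windows (0.259%), which include those of these genes. H2-Eb2, a class II chain that is not among the genes named above, also held it, with a spacing of 22 bases. H2-Eb2 had only 9 and 0 reads in the controls against 0 and 7 in CD37 -/- LSCs. The cores are known class II elements, so these shares are a description and not a test. The spacing was 22 bases in H2-Eb1 and 23 bases in both H2-DMb1 and H2-DMb2. H2-Aa had CTGATTGG from base -51 to -44, and ACNGATG only on the other strand from base -232 to -226, outside the printed stretch, which says only that these letters are not in this window on the strand of the gene. Singly, ATTGG was found in 37.4% of all windows, CTGATTGG in 4.10% and ACNGATG in 9.85%. The RefSeq start lies 1942 bases inside the GENCODE gene for H2-DMb2, 119 bases inside for H2-DMb1 and at the GENCODE start for H2-Aa and H2-Eb1. The 2 RefSeq starts of H2-DMa lie 3291 and 5977 bases inside the GENCODE gene, and its promoter is not printed. Its windows held no X box core and so no pair, and only ATTGG from base -198 to -194 of the start at 5977. H2-Ab1, Cd74 and Ciita are named only.

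**Figure D1:**
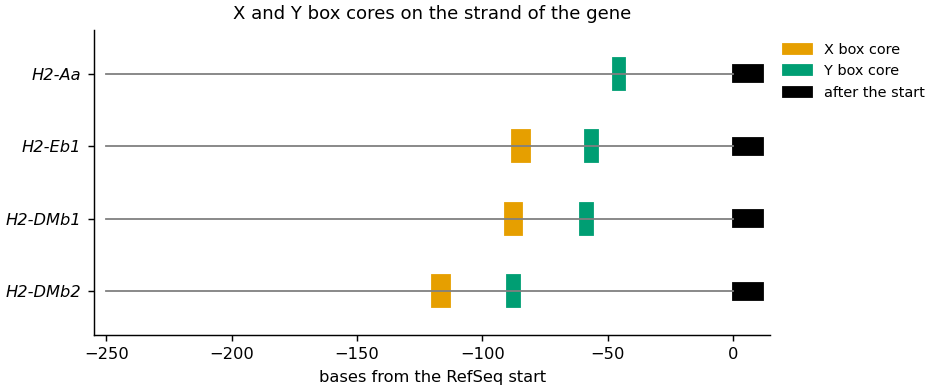
Positions of the X box core (orange) and the Y box core (green) in 4 class II promoters, in bases from the RefSeq start, on the strand of the gene. The pair stands 22 to 23 bases apart in H2-Eb1, H2-DMb1 and H2-DMb2, and H2-Aa holds the Y box core alone on this strand.

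The values are FPKM, fragments per kilobase of gene, relative to the depth of each library. The kilobases were those of the whole genomic span, introns included, since the values then came out as whole reads, within 0.05 of a read, for about 99% of genes in each library (chance gives 10%). The same length of a gene thus enters its FPKM in each library, while differences between libraries also depend on the scaling, as given below. Levels between genes are compared only as FPKM per exon length, over the merged exons of all transcripts. The recovered reads summed to between 15139063 and 22562837 per library. Differences between genotypes are CD37 -/- minus CD37 fl/fl on log2(FPKM + 1), which makes the changes of low genes look smaller. Cd37 itself stood at 56.6 and 46.8 FPKM in the controls against 23.2 and 22.9 in CD37 -/- LSCs. It was lower there, as the labels have it, but its mean was still 44.6% of the control mean. An FPKM over the whole gene does not show whether the exons between the loxP sites were lost. Whether the remaining reads came from shortened RNA or from cells without the deletion was not tested.

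The invariant chain and the classical chains were high in a single library, CD37 fl/fl replicate 1. Cd74 (ENSMUSG00000024610, chr18:60803848-60812652 in the GENCODE M21 annotation of GRCm38, as for the other genes, plus strand) stood at 170.6 and 20.6 FPKM in control replicates 1 and 2, against 7.62 and 25.7 in replicates 1 and 2 of CD37 -/- LSCs. The groups overlapped, because CD37 -/- replicate 2 stood above CD37 fl/fl replicate 2. The levels were 95.6 ± 106 and 16.7 ± 12.8 (SD, n = 2 and n = 2), and the log2 difference was -2.0 with a standard error of 1.70. CD37 fl/fl replicate 1 was 8.26-fold above the other control, which is a wider gap than the 3.38-fold between the CD37 -/- libraries.

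H2-Aa (ENSMUSG00000036594, chr17:34282744-34287823, minus strand), the alpha chain of H2-A, had an FPKM of 34.7 and 5.04 in the controls against 2.24 and 11.3 in CD37 -/- LSCs. H2-Ab1 (ENSMUSG00000073421, chr17:34257689-34269419, plus strand), its beta chain, had 30.8 and 5.35 in the controls against 1.36 and 6.02 in CD37 -/- LSCs. H2-Eb1 (ENSMUSG00000060586, chr17:34305867-34316674, plus strand), the beta chain of H2-E, had 26.2 and 2.66 in the controls against 0.866 and 4.34 in CD37 -/- LSCs. In each of the 3 chains the second CD37 -/- library again lay above the second CD37 fl/fl library, so the groups overlapped. The log2 difference was -1.22 (standard error 1.60, n = 2 and n = 2) for H2-Aa, -1.80 (1.40) for H2-Ab1 and -1.66 (1.63) for H2-Eb1. The standard error was larger than the difference in H2-Aa and about as large in H2-Eb1. Both chains of H2-A were highest in CD37 fl/fl replicate 1 and lowest in CD37 -/- replicate 1, by 15.5-fold for H2-Aa and by 22.7-fold for H2-Ab1, and the span was 30.3-fold for H2-Eb1. H2-Eb1 overlaps an antisense gene, Gm20513, over 2204 bases, and the strand setting of the counting is not given in the sources used here.

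**Figure D2:**
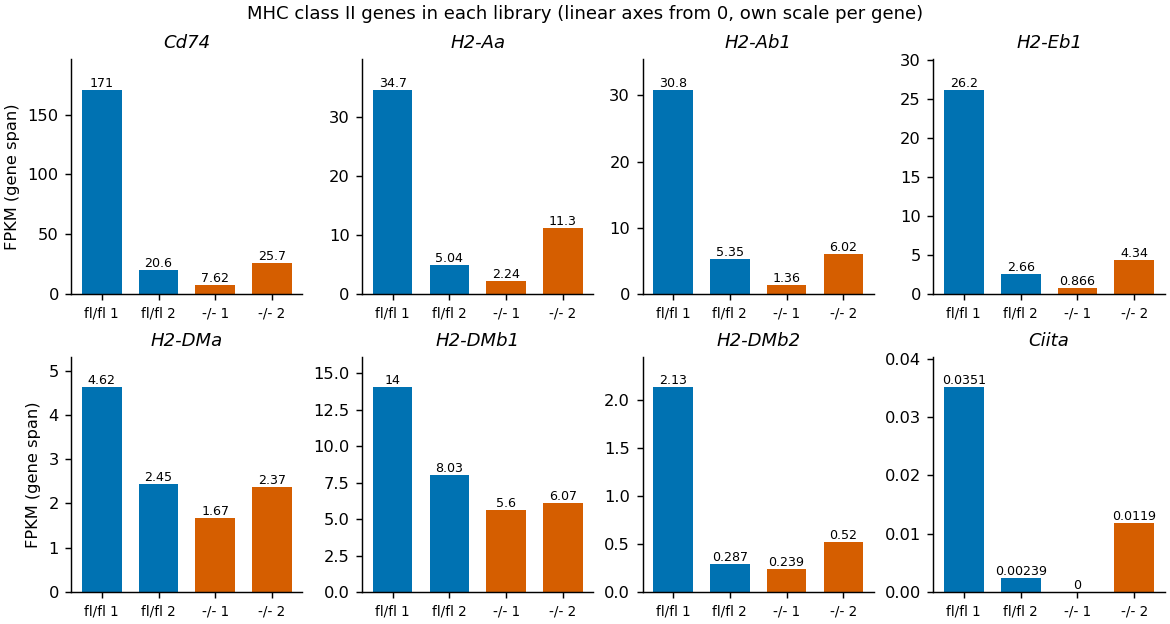
FPKM of the 8 class II genes in each of the 4 libraries, CD37 fl/fl in blue and CD37 -/- in orange, with 1 bar per library and a scale of its own for each gene. CD37 fl/fl replicate 1 is the highest library for each of the 8 genes, and CD37 -/- replicate 1 the lowest.

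H2-DM, which loads peptide, moved over a narrower range in its alpha chain and in 1 of its beta chains. H2-DMa (ENSMUSG00000037649, chr17:34119541-34139101, plus strand) had an FPKM of 4.62 and 2.45 in the controls against 1.67 and 2.37 in CD37 -/- LSCs. H2-DMb1 (ENSMUSG00000079547, chr17:34153072-34160230, plus strand) had 14.0 and 8.03 in the controls against 5.60 and 6.07 in CD37 -/- LSCs. These were the only 2 of the 8 genes whose groups did not overlap, with both CD37 -/- libraries lower, as was so for 23.7% of the 6761 genes tested, those whose mean FPKM reached 1. Nothing is read from that count, since the genes were chosen on these values. For H2-DMa the gap between the second CD37 fl/fl library and the second CD37 -/- library was small, at 2.45 against 2.37. The log2 difference was -0.55 (standard error 0.39) for H2-DMa and -0.77 (0.37) for H2-DMb1. H2-DMa overlaps Brd2 on the opposite strand over 3094 bases, so some of its reads may be those of Brd2 if strand was not used.

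H2-DMb2 (ENSMUSG00000037548, chr17:34143307-34151555, plus strand), the other beta chain of H2-DM, had an FPKM of 2.13 and 0.287 in the controls against 0.239 and 0.520 in CD37 -/- LSCs. It followed the classical chains rather than H2-DMb1 in the order of its libraries, and its groups overlapped. The log2 difference was -0.55 with a standard error of 0.66. H2-DMb1 and H2-DMb2 share sequence, with 43.1% of the stretches of 15 bases of H2-DMb1 present in H2-DMb2 and 41.2% the other way, so the split of reads between them is uncertain.

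Ciita (ENSMUSG00000022504, chr16:10480059-10528418, plus strand), the switch of the family, was close to the limit of detection. It had 26 and 2 reads in the controls against 0 and 13 reads in CD37 -/- LSCs, or 41 reads in all. A count of 0 in CD37 -/- replicate 1 allows up to 0.170 RPM (reads per 1000000 reads of the library; 3 counts, counting error only). The most reads were again in CD37 fl/fl replicate 1, at 1.72 RPM, and the groups overlapped. On log2(FPKM + 1) the difference was -0.02 (standard error 0.02), a scale that hardly moves at such a level, and -1.78 by limma-voom on the recovered reads. Ciita overlaps Dexi on the opposite strand over 25888 bases, so the origin of these few reads is uncertain.

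Per exon length, the order of the genes changed between libraries. Cd74 had the highest level in each library, from 40 to 895 FPKM per exon length, and H2-DMb2 and, last, Ciita had the lowest. In CD37 fl/fl replicate 1 the classical beta chains came next, with H2-Eb1 at 146 and H2-Ab1 at 141, above H2-DMb1 at 59.8. In the second control H2-DMb1 at 34.2 already stood above H2-Ab1 at 24.4 and H2-Eb1 at 14.8. The same held in CD37 -/- replicate 1, with H2-DMb1 at 23.8 and H2-DMa at 9.47 above H2-Ab1 at 6.19, H2-Eb1 at 4.81 and H2-Aa at 3.00. In CD37 -/- replicate 2, H2-Ab1 at 27.5, H2-DMb1 at 25.9 and H2-Eb1 at 24.1 were near each other. Between Cd74 and H2-DMb2 no full ranking of the other 5 genes was held by all 4 libraries. H2-DMb1 stood above H2-DMa, and H2-Ab1 and H2-Eb1 above H2-Aa, in each of them.

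Ratios within a library showed which genes moved together. The ratio of Cd74 to H2-Ab1 per exon length was 6.36, 4.43, 6.46 and 4.91 in CD37 fl/fl 1, CD37 fl/fl 2, CD37 -/- 1 and CD37 -/- 2. Its highest value was 1.46 times its lowest, while Cd74 itself spanned 22.4-fold. H2-Eb1 to H2-Ab1 spanned 1.71-fold and H2-Aa to H2-Ab1 1.99-fold, and both CD37 -/- libraries had more H2-Aa per H2-Ab1 (0.484 and 0.548) than both CD37 fl/fl libraries (0.330 and 0.276). Within H2-DM, H2-DMa to H2-DMb1 stayed between 0.397 and 0.519, a span of 1.31-fold, whereas H2-DMb2 to H2-DMb1 was 0.168 and 0.0396 in the controls against 0.0474 and 0.0949 in CD37 -/- LSCs, a span of 4.24-fold. H2-DMb1 did not keep to the classical chains. H2-DMb1 to H2-Ab1 was 0.425 and 1.40 in the controls against 3.85 and 0.940 in CD37 -/- LSCs, a span of 9.07-fold.

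The 2 controls differed from each other by more than the genotypes did in 7 of the 8 genes, all but H2-DMb1. On log2(FPKM + 1), CD37 fl/fl replicate 2 minus replicate 1 was -2.99 for Cd74, -2.56 for H2-Aa, -2.32 for H2-Ab1 and -2.9 for H2-Eb1, while the same difference over the 6761 genes had a median of 0.09 and a 1st percentile of -1.67. In CD37 -/- LSCs, replicate 2 lay above replicate 1 by 1.63, 1.92, 1.58 and 1.52 for the same genes, while the median was 0.01 and the 99th percentile 1.13. A fall of at least 2 between the controls was shown by 36 genes (0.532%), and a rise of at least 1.5 between the CD37 -/- libraries by 18 genes (0.266%). Cd74, H2-Aa, H2-Ab1 and H2-Eb1 were the only 4 genes (0.0592%) that met both limits, which were set with the values of these genes known. The limit of 1.5 lies just under the value of H2-Eb1. Mir27a, annotated as a microRNA gene, at -2.30 and 1.41, and Ifi27l2a, at -2.51 and 1.37, narrowly missed it. H2-DMa and H2-DMb1 moved less, by -0.71 and -0.74 between the controls and by 0.34 and 0.10 between the CD37 -/- libraries. The order from CD37 fl/fl 1 over CD37 -/- 2 and CD37 fl/fl 2 down to CD37 -/- 1 was held by 6 of the 8 genes, all but H2-DMa and H2-DMb1, and by 1.12% of the genes tested.

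**Figure D3:**
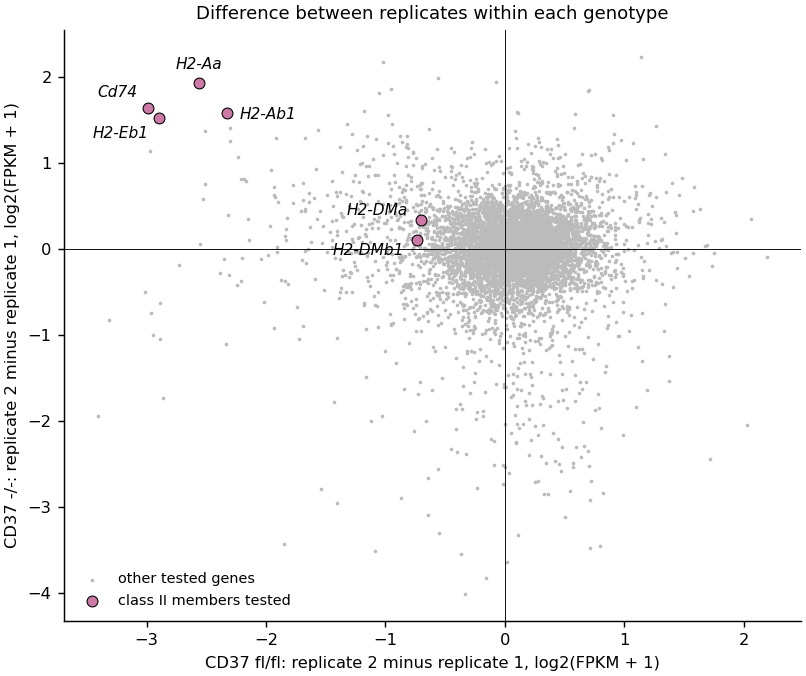
Replicate 2 minus replicate 1 on log2(FPKM + 1), in CD37 fl/fl (horizontal axis) and in CD37 -/- LSCs (vertical axis), for 6761 genes (grey) and the 6 class II genes among them (pink). The axes share no library. Cd74, H2-Aa, H2-Ab1 and H2-Eb1 lie at the upper left, at -2.99 to -2.32 and 1.52 to 1.92, with Mir27a near them at -2.30 and 1.41. H2-DMa and H2-DMb1 lie between the 5th and 95th percentiles of the genes tested on both axes.

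The same controls differed in other genes, but few of these met a limit of 1 below CD37 fl/fl replicate 1 in both CD37 -/- libraries. Of the 36 genes that fell by at least 2 between the controls, both CD37 -/- libraries lay at least 1 below CD37 fl/fl replicate 1 in the 4 class II genes and in 1 of the 32 others, Mir27a. The others included Hba-a1, an alpha globin, with an FPKM of 36.6 and 2.54 in the controls against 226 and 58.4 in CD37 -/- LSCs, and Stfa2, a protease inhibitor, with 30.7 and 2.93 in the controls against 32.7 and 22.9 in CD37 -/- LSCs. In further genes both CD37 -/- libraries lay below CD37 fl/fl replicate 1, but the nearer of them by less than 1. Wfdc21 had 14.1 and 2.04 in the controls against 6.76 and 5.28 in CD37 -/- LSCs. Apoe had 83.3 and 17.7 in the controls against 24.7 and 43.3 in CD37 -/- LSCs. The count therefore depends on the limit, and all of these examples were picked after their values were seen.

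Over the 6 class II genes that were expressed highly enough to be tested, the median log2 difference between the genotypes was -1.44, against 0.11 over all genes tested. Without CD37 fl/fl replicate 1 it was -0.31, and H2-Aa (0.06), H2-DMb2 (0.09) and Ciita (0.01) were then no longer lower in CD37 -/- LSCs. The other 5 genes stayed lower, with Cd74 at -0.51, H2-Ab1 at -0.64, H2-Eb1 at -0.21, H2-DMa at -0.20 and H2-DMb1 at -0.40. With CD37 fl/fl replicate 2 left out it was -2.73, without CD37 -/- replicate 1 it was -0.81 and without CD37 -/- replicate 2 it was -2.30. The median thus moved by more than 1.5 times with each of the 4 libraries. Rescaling moved the median of all genes to -0.02 (quantile normalization), 0.40 (TPM rescaling), -0.03 (upper quartile) or 0.25 (limma-voom on the recovered reads), and all 8 genes stayed below 0 under each.

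**Figure D4:**
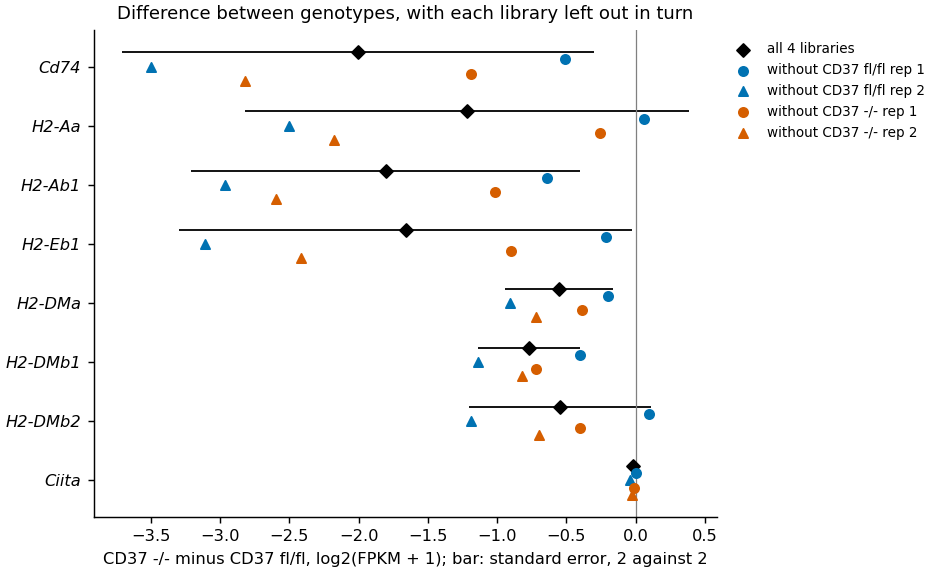
CD37 -/- minus CD37 fl/fl on log2(FPKM + 1) for the 8 class II genes, with all 4 libraries (black, bar of 1 standard error, 2 libraries against 2) and with each library left out in turn. Without CD37 fl/fl replicate 1 (blue circles) the differences lie between -0.64 and 0.09, and without CD37 fl/fl replicate 2 (blue triangles) that of Cd74 is -3.50.

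Summed markers of macrophages and dendritic cells went the same way as these genes between the replicates of each genotype, though not every marker did. Cd74, H2-Aa, H2-Ab1 and H2-Eb1 together held 2352 and 300.2 RPM in the controls against 104 and 403 in CD37 -/- LSCs. The 5 defining macrophage markers (C1qa, C1qb, C1qc, Cd5l and Siglec1) summed to 66.2 and 11.6 RPM in the controls against 14.6 and 45.0 in CD37 -/- LSCs, with Cd5l at 0 in CD37 fl/fl replicate 2. Siglec1 alone among them had its most reads, 489, in CD37 -/- replicate 2, where it made up 21.7 of the 45.0 RPM. All 12 macrophage markers were lower in CD37 fl/fl replicate 2 than in replicate 1 and 10 of 12 were higher in CD37 -/- replicate 2 than in replicate 1, and their sum ranged from 227 to 531 in CD37 fl/fl and from 248 to 510 in CD37 -/- LSCs. In the sum of all 12 markers, CD37 -/- replicate 2 came close to CD37 fl/fl replicate 1, and Cd68 and Csf1r held the most reads of the list in both. The C1q genes did not, and in this they were like the class II genes. C1qb had 35.5 and 5.97 RPM in the controls against 4.59 and 11.7 in CD37 -/- LSCs. Of the 12 macrophage markers, 2 had the library order of the classical chains, C1qb and Cd68. C1qa, C1qc and the sum of the 5 defining markers were lowest in CD37 fl/fl replicate 2, not in CD37 -/- replicate 1.

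Dendritic cell markers were few in reads. The 5 defining markers (Zbtb46, Xcr1, Clec9a, Siglech and Cd209a) summed to 7.73 and 2.96 RPM in the controls against 0.624 and 2.13 in CD37 -/- LSCs, with Xcr1 at 0 in both CD37 -/- libraries. Of these 5, 4 were lower in the second control than in the first, all but Clec9a, and only Cd209a and Siglech differed by more than 1 read between the CD37 -/- libraries. Siglech had 2 and 18 reads there, while Zbtb46 had 3 and 3. Cd209a, a lectin of monocyte-derived dendritic cells, had 81 and 23 reads in the controls against 2 and 22 reads in CD37 -/- LSCs. The 11 markers with values, of 12, summed to between 19.9 and 37.3 RPM in the controls and from 7.77 to 21.1 in CD37 -/- LSCs. Of these 11, 9 were lower in the second control than in the first, 7 were higher in CD37 -/- replicate 2 than in replicate 1, and 1 had the library order of the classical chains. The sum over the whole list had that order as well, while over the defining markers the second control lay above the second CD37 -/- library.

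The 2 defining B cell markers with values, of 3 (Cd79a and Pax5), did not have that order, at 1.85 and 0.348 RPM in the controls against 2.44 and 2.04 in CD37 -/- LSCs, with Pax5 at 0 in CD37 fl/fl replicate 2. The 8 of 11 B cell markers with values summed to between 93.8 and 124 in the controls and from 65.0 to 108 in CD37 -/- LSCs. Ighm and Cd79b held most of that sum. The 5 of 9 T and NK cell markers with values summed to 115 and 145 in the controls against 54.5 and 52.8 in CD37 -/- LSCs. Nearly all of this was Nkg7, at 113 and 139 RPM in the controls against 47.5 and 48.8 in CD37 -/- LSCs. Lck had 1.85 and 4.98 RPM in the controls against 5.61 and 3.50 in CD37 -/- LSCs. The only defining T and NK cell marker with values, Cd3g, was at 0 in both CD37 fl/fl libraries. Of the markers of the sorted leukemia cells, 9 of 10 had values. They summed to 9522 and 12646 RPM in the controls against 8415 and 7506 in CD37 -/- LSCs. Kit, which encodes the sort marker c-kit, was at 14.1 and 26.7 RPM in the controls against 26.9 and 35.6 in CD37 -/- LSCs. It was thus lowest in CD37 fl/fl replicate 1, where the class II genes were highest, as were Cd34, Hoxa9, Hoxa10 and Meis1. Mpo alone of the 9 was highest there, at 880.5 and 561 RPM in the controls against 375 and 226 in CD37 -/- LSCs. In RPM, Mpo, Elane, Prtn3, Ctsg and the sum were lowest in CD37 -/- replicate 2. Cd34 had only 5 to 16 reads. The part of other cells in the class II levels was not tested, and in bulk RNA fewer cells of a type and less RNA per cell cannot be told apart.

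**Figure D5:**
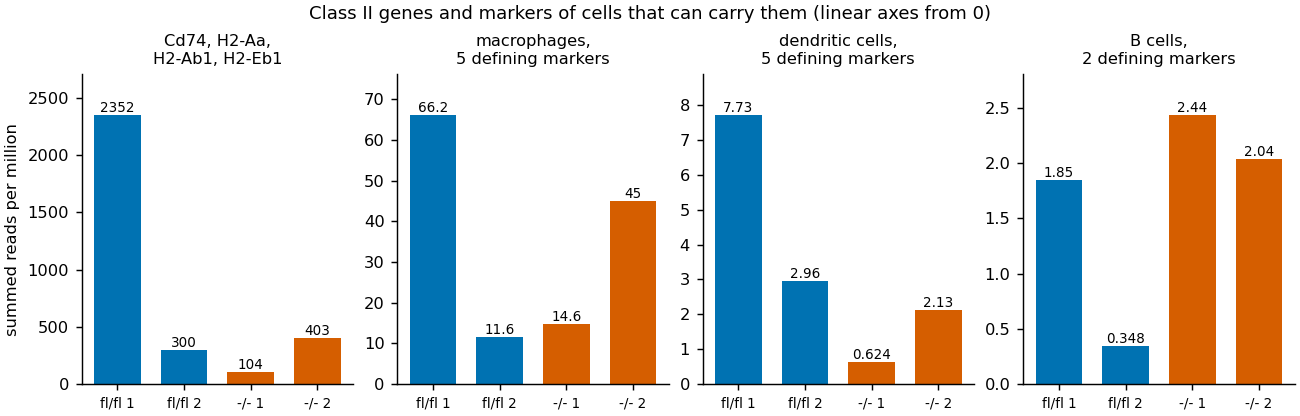
Summed RPM in each library for Cd74, H2-Aa, H2-Ab1 and H2-Eb1 and for the defining markers of macrophages, dendritic cells and B cells, each with its own axis from 0. The class II genes, the macrophage markers and the dendritic cell markers are highest in CD37 fl/fl replicate 1 (2352, 66.2 and 7.73), and the B cell markers are highest in CD37 -/- replicate 1 (2.44).

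Genes of most like pattern were sought by the distance between their centred log2(FPKM + 1) and the mean centred profile of the 6 class II genes, over the 4 libraries and 6755 other genes. The closest were Mir27a (distance 0.246), Igfbp6 (0.505), Ifi30 (0.733), C1qb (0.737) and Clec4n (0.740), followed by Ckb, Myl10, Pld4, Gadd45g and C1qa (0.932), where the median gene stood at 2.27. The class II genes themselves lay between 0.583 (H2-Ab1) and 1.36 (H2-DMa). Mir27a is annotated as a microRNA gene, with an FPKM of 20.2 and 3.32 in the controls against 1.30 and 5.08 in CD37 -/- LSCs. These values come from poly(A) RNA and are not read as levels of the mature microRNA. The number of reads behind them is not given here. C1qb and C1qa, complement subunits made by macrophages, had an FPKM of 5.78 and 0.981 (C1qb) and of 6.51 and 1.12 (C1qa) in CD37 fl/fl LSCs, and of 0.754 and 1.93 and of 1.29 and 1.93 in CD37 -/- LSCs. Ifi30, a lysosomal thiol reductase that unfolds antigens by reducing their disulfide bonds, had 51.9 and 22.1 in the controls against 11.9 and 19.6 in CD37 -/- LSCs.

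Other genes of the class II route were read from 7 lists that hold 43 genes, of which 41 had values and 26 reached a mean FPKM of 1. With limma and Benjamini-Hochberg adjustment over all 6761 genes, 0 genes (0.00%) had an adjusted p under 0.05, in the lists as in the whole table, and limma-voom also gave 0. Before adjustment 1626 genes (24.0%) had a p under 0.05, of which 1088 (16.1%) were higher and 538 (7.96%) lower in CD37 -/- LSCs, and 809 in all without CD37 -/- replicate 2. The share of higher genes among them was 66.9%, and 47.5%, 91.3%, 44.0% and 75.6% under the 4 rescalings in the order given above. In the lists, 6 of 26 genes (23.1%) passed, 4 higher and 2 lower, which is near the share of all genes, and their median difference was 0.03 against 0.11.

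Of the factors that bind the X and Y boxes, 0 of 5 tested passed the unadjusted p, and 4 differences were above 0 and 1 below. Rfxap, an RFX subunit, had a log2 difference of 0.03 whose sign turned under rescaling, and Nfyb, an NF-Y subunit, had 0.43. Rfx5, whose mean FPKM lay under the limit of 1 of the main test, had 5 and 11 reads in the controls against 31 and 123 reads in CD37 -/- LSCs. It was named after its values were seen. Upstream of Ciita, 0 of 6 tested genes passed, with 4 differences above 0 and 2 below. Ifngr1, a chain of the interferon-gamma receptor, had 0.09 with a sign that turned under rescaling, and Spi1, the myeloid factor PU.1, had 0.18, which was 0.01 with the upper quartile, 0.42 without CD37 fl/fl replicate 1 and -0.06 without CD37 fl/fl replicate 2. Irf8, a factor of monocyte and dendritic cell fate, had an FPKM of 2.35 and 2.13 in the controls against 0.427 and 1.84 in CD37 -/- LSCs and was named after its values were seen.

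Among 8 tested processing genes, 1 was higher and 1 lower at an unadjusted p under 0.05. Ctsd, the lysosomal protease cathepsin D, had an FPKM of 5.81 and 4.12 in the controls against 9.96 and 18.9 in CD37 -/- LSCs. Its log2 difference was 1.32 with a standard error of 0.34 (adjusted p = 0.122 by limma with Benjamini-Hochberg adjustment, 0.0755 to 0.363 over the alternatives). Ctsz, cathepsin Z, had 91.6 and 72.0 in the controls against 47.7 and 51.2 in CD37 -/- LSCs, with a log2 difference of -0.70 and a standard error of 0.26 (adjusted p = 0.186 by limma with Benjamini-Hochberg adjustment, 0.127 to 0.448 over the alternatives). Neither had the library order of the classical chains, and neither passed the adjusted p. Ctsb had a difference of -0.16 whose sign turned under rescaling.

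CD74 is also a receptor for the cytokine MIF, with CD44 and the chemokine receptors CXCR2 and CXCR4 as partners. Of 5 tested genes of this list, 2 were higher and 1 was lower at an unadjusted p under 0.05. Cxcr4, which holds cells in the marrow, had an FPKM of 16.8 and 13.8 in the controls against 42.8 and 45.4 in CD37 -/- LSCs, with no overlap. Its log2 difference was 1.47 with a standard error of 0.24 (adjusted p = 0.0715 by limma with Benjamini-Hochberg adjustment, 0.0490 to 0.251 over the alternatives). Cxcr2, a receptor of neutrophils, had 5.81 and 1.13 in the controls against 6.73 and 17.8 in CD37 -/- LSCs, a difference of 1.66 with a standard error of 0.65 (adjusted p = 0.196, limma with Benjamini-Hochberg adjustment, 0.108 to 0.633 over the alternatives), which was 0.83 without CD37 fl/fl replicate 2, 1.02 without CD37 -/- replicate 2 and 2.50 without CD37 fl/fl replicate 1. Ddt, a relative of MIF, had -0.79 with a standard error of 0.23 (adjusted p = 0.141, limma with Benjamini-Hochberg adjustment, 0.124 to 0.543 over the alternatives). Mif itself had an FPKM of 346 and 632 in the controls against 358 and 207 in CD37 -/- LSCs, with overlapping groups and a control difference opposite to that of Cd74.

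Of 2 tested costimulators, 1 passed the unadjusted p. Icam1, an adhesion ligand for T cells, had an FPKM of 0.463 and 0.652 in the controls against 1.73 and 2.35 in CD37 -/- LSCs, with a log2 difference of 0.96 and a standard error of 0.19 (adjusted p = 0.0893 by limma with Benjamini-Hochberg adjustment, 0.0688 to 0.260 over the alternatives). Icosl had a difference of 0.01 whose sign turned under rescaling. The other class II chains and the genes of surface turnover held 0 tested genes. H2-Ob, a chain of the H2-DM inhibitor H2-O, had 48 and 104 reads in the controls against 21 and 60 reads in CD37 -/- LSCs, and H2-Eb2 had 9, 0, 0 and 7 reads in the libraries in the same order. Unlike the classical chains, H2-Ob was higher in the second CD37 fl/fl library. March8, a ligase that removes class II from the surface, had a log2 difference of 0.33, which ranged from 0.10 with quantile normalization to 1.45 by limma-voom. Cd83, which opposes that removal, had -0.08, which turned to 0.13 without CD37 fl/fl replicate 1 and to 0.04 by limma-voom. H2-Oa and H2-Ea-ps were not analysed here.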

How the data were processed

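RNA with poly(A) tails from sorted YFP+, c-kit+ LSCs was sequenced in 2 CD37 fl/fl and 2 CD37 -/- libraries. The values deposited by the authors are FPKM, 1 column for each library, not logged. The submitters' processing notes name fastp 0.20.1, STAR 2.7.7a, featureCounts 2.0.0, edgeR and the build mm39, without roles, and the paper names limma. Gene identifiers were matched to GENCODE M21 on GRCm38 (17045 of 17104, 99.7%), whose gene spans gave whole reads for 16843 genes in each of the 4 libraries, although the notes name another build. Positions are those of this annotation.

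Tests were two-sided, on log2(FPKM + 1), with limma 3.58.1 under R 4.3.3 and statmod 1.5.0 (lmFit, then eBayes with trend), for the 6761 genes whose mean FPKM reached 1. Benjamini-Hochberg adjusted values were held against 0.05. The class II genes, lists, markers and limits were chosen with earlier results of these data known. Named are the 8 class II genes, the genes of the 7 lists with an unadjusted p under 0.05 or among the 2 highest of a list, and the 10 genes of most like pattern, predicted genes passed over. Rfx5 and Irf8 were named outside this rule, after their values were seen. One gene of a marker list is not reported here, and its list was summed without it. Alternatives were a pseudocount of 0.1, no filter beyond a value above 0, a filter at a mean FPKM of 5, rescaling (quantile, TPM, upper quartile), FPKM per exon length, limma-voom on recovered reads (a mean of at least 10), eBayes without trend or robust, the replicate block and each library left out. The code was tested on simulated data. Python 3.11.15, numpy 2.4.6, pandas 2.3.3 and matplotlib 3.10.9 were used.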

Additional observations from a re-analysis of the deposited data

How the results depend on the processing

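The median log2 difference of the 6 class II genes was -1.44 and ranged from -1.71 to -1.12 over the alternatives that kept all 4 libraries, and from -2.73 (without CD37 fl/fl replicate 2) to -0.31 (without CD37 fl/fl replicate 1) with a library left out. The median difference between the controls was -2.44, with a range from -2.66 to -2.35 over the alternatives. Of 120 values of single class II genes, 3 changed sign, all without CD37 fl/fl replicate 1. By limma with Benjamini-Hochberg adjustment 0 genes passed an adjusted p of 0.05, and 16 with FPKM per exon length, 45 with a filter at a mean FPKM of 5, 88 with robust estimation, 46 with the upper quartile and 0 to 0 with a library left out. Before adjustment 1626 genes passed 0.05, and 2911 with all genes above 0, 2639 with FPKM per exon length, 3303 with limma-voom, 755 with a filter at a mean FPKM of 5 and 809 to 1593 with a library left out. The 6 list genes became 11 with FPKM per exon length, 14 with limma-voom and 4 to 8 with a library left out. With the replicate block, 73 genes had an adjusted p under 0.05. No label says that the replicate numbers mark a pairing. Over the genes tested, same-numbered samples did not deviate together (correlation -0.04). That value cannot exclude a pairing that touches only some genes. The causes of these moves were not tested. With a library left out, the lone library of its genotype is assumed to vary like the pair of the other genotype. With 2 libraries per genotype and 0 to 26 reads, the level of Ciita is limited by depth.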
